A study of Mus musculus with 2 samples.

Results

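The collagen genes are the genes whose symbol is Col, a number, the letter a and a second number. The reference annotation held 44 of them, and 34 had at least 1 count in either of 2 long-read RNA libraries from mouse heart, out of 16248 reference genes with a count. Collagens are secreted proteins built from chains that wind around each other in a triple helix, in which every chain repeats a glycine followed by a pair of other residues. Fibrillar collagens form the cables of the interstitial matrix, type IV forms the sheet of basement membranes around cardiac muscle cells and capillaries, and type VI forms beaded filaments close to cells. In the heart, fibroblasts are the main source of the fibrillar chains, and endothelial and mural cells also make type IV.

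The tissue was heart of male mice aged 14 days of the strain B6CASTF1/J, F1 hybrids of a C57BL/6J and a wild-derived CAST parent. The 2 libraries form 1 group, carry no treatment, and each started from 2 µg of total RNA. Both have the same donor label, the labels mention 3x Males without saying whether animals were pooled, and both descriptions point to 1 shared tissue sample and 1 shared pair of cDNAs. The SDs therefore measure only how far these 2 samples lie apart, and whether for technical or other reasons was not tested. Every test compares the libraries and holds counting error only. The libraries differed in atrial and thymus markers, as given below. The values are read counts per transcript model. Long reads are meant to cover a transcript in 1 piece, so a count stands for 1 read of any length.

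Counts on reference genes came to 1059016 for replicate 1 and 1064679 for replicate 2, so that 1 count was worth 0.944 and 0.939 CPM, a count scaled to a library total of 1000000 counts. The markers of cardiac muscle summed to 3.31% and 3.49% of counts, and none of its 6 listed genes was at 0. By the exact binomial test described below, Myh6 was higher in replicate 2 (22068 and 24632 counts) and Tnni3 in replicate 1 (495 and 363). The other 4 of the 6 did not pass this test. By the median log2 ratio of replicate 2 over replicate 1, the lists furthest apart were thymus (4.61) and atrial muscle (-1.99). All 4 atrial markers (Nppa, Myl7, Myl4, Sln) were higher in replicate 1, with 5154 counts in sum against 1278, and all 3 tested thymus markers (Cd8a, Cd8b1, Dntt) were higher in replicate 2, with list sums of 0 and 67. Fibroblast markers summed to 3556 and 2921 counts with 1 of 8 past the test (Gsn, higher in replicate 1), endothelial markers to 834 and 802 with 0 of 7, and smooth muscle and pericyte markers to 914 and 1034 with 0 of 7. Epicardial markers gave 127 and 143 counts with 0 of 4 past the test, endocardial and valve markers 113 and 65 with 0 of 4, and the untested Schwann cell markers 6 and 3. Macrophage markers gave 295 and 415 counts with Lyz2 higher in replicate 2 (97 and 182). Adipocyte markers gave 183 and 101 with the brown fat genes Ucp1 (32 and 2) and Cidea (120 and 70) higher in replicate 1. The cartilage markers Acan, Matn1 and Hapln1 and the lung markers Sftpc and Sftpb were at 0 in both libraries. Over all lists, 8 of 52 tested markers were called higher in replicate 1 and 5 in replicate 2. Over all tested genes these shares were 1.65% and 1.60%. The exact test of edgeR, with a common dispersion, called 7 markers, namely the 4 atrial ones, Cd8a, Cd8b1 and Ucp1.

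Collagen exons carry the repeat in their length, because a glycine codon starts with GG and 1 repeat takes 9 bases. In the dominant annotated transcripts of the 34 detected genes, 851 of 1368 internal exons (62.2%) had a length divisible by 9, against 13.5% of 173687 internal exons of other protein-coding genes. Exactly 54 bases were found in 324 of them, and 703 had GG at each ninth base from their first base on. The fibrillar Col3a1 had 43 of 49 such lengths and Col1a1 43 of 49, while the type IV chain Col4a1, whose helix is interrupted, had 20 of 50. Exon 6 of Col3a1 (mm10, chr1:45325360-45325413, plus strand, coding) is shown with each repeated GG in capitals, because many of the exons counted below have this build.
Col3a1 exon 6: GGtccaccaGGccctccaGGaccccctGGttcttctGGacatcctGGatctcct

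Collagen genes took 6353 counts in replicate 1 and 6785 in replicate 2. That was 0.600% (95% exact Clopper-Pearson interval 0.585 to 0.615) and 0.637% (0.622 to 0.653) of the counts on reference genes, or 0.619% ± 0.026 (SD, n = 2 here and in all later values). A few chains made up most of this. Fibrillar chains held 70.6% and 71.2% of collagen counts, type IV chains 23.8% and 22.98%, type VI chains 3.65% and 3.80%, and all remaining families 1.86% and 2.02%. Col3a1 alone held 56.4% and 56.8%. The shares of the families therefore differed between libraries by less than 1 percentage point. Because reads carry no molecular identifiers, the intervals cover counting error only, and in bulk tissue fewer cells of a type and less RNA per cell cannot be told apart.

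**Figure D1:**
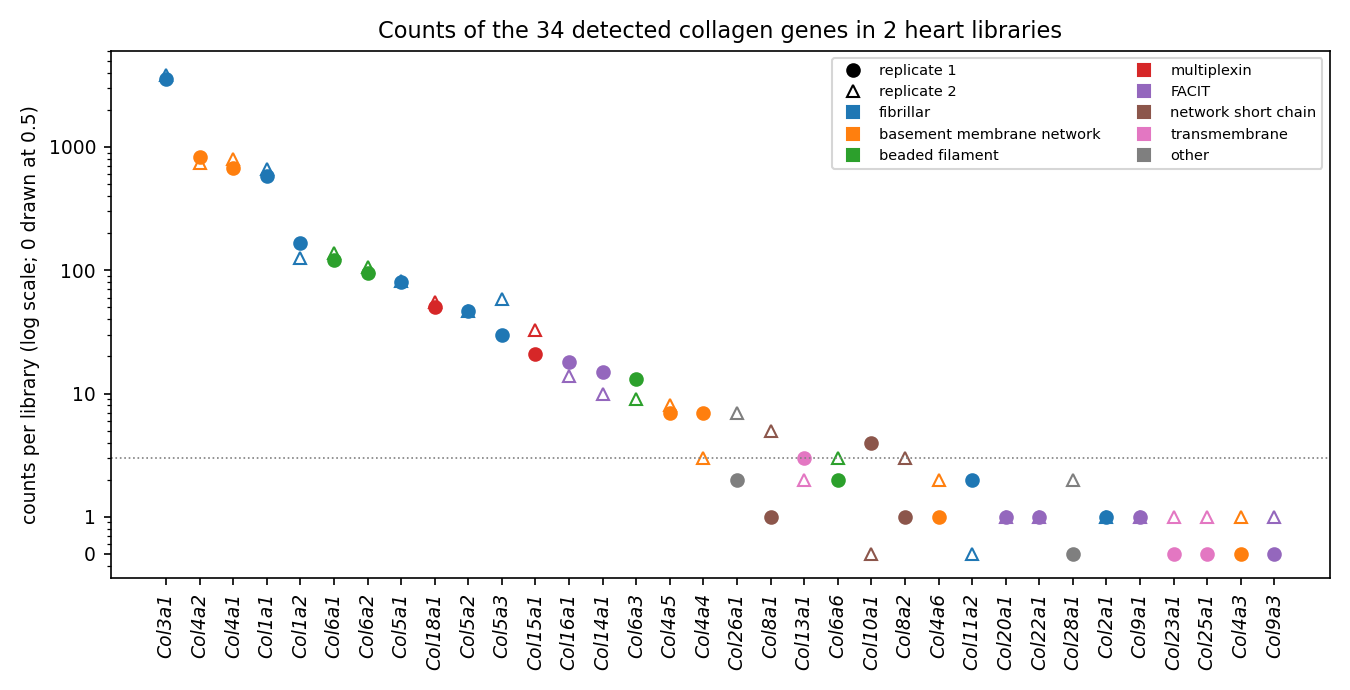
Counts of each detected collagen gene (x axis, ordered by summed counts) in replicate 1 (filled circles) and replicate 2 (open triangles), on a log axis with 0 drawn at 0.5, coloured by family. The dotted line marks 3 counts. Col3a1 stands at 3584 and 3854 counts, and the next 3 genes lie between 578 and 827.

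Among fibrillar chains, Col3a1 (ENSMUSG00000026043.18, mm10 chr1:45311538-45349706), the single chain of type III, had 3584 and 3854 counts, or 3502 ± 167 CPM. Col1a1 (ENSMUSG00000001506.10, chr11:94936224-94953042), the major chain of type I, had 578 and 664 counts (585 ± 55.1 CPM). Col1a2 (ENSMUSG00000029661.16, chr6:4504814-4541544), its partner, had 166 and 125 (137 ± 27.8 CPM). Col1a1 was above Col1a2 in both libraries, and Col3a1 was above all the others. Type V nucleates fibrils and limits their width, and its chains were lower still. Col5a1 had 80 and 82 counts, Col5a2 47 and 47, and Col5a3 30 and 58. The cartilage chain Col2a1 had 1 and 1 count, and Col11a2 2 and 0. Col11a1, Col24a1 and Col27a1 had 0 in both, which allows up to 3 counts per library, or 2.83 and 2.82 CPM.

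The type IV chains of the ubiquitous network were the second group. Col4a1 (ENSMUSG00000031502.11, chr8:11198423-11312826, minus strand) had 673 and 800 counts (693 ± 82.0 CPM), and Col4a2 (ENSMUSG00000031503.13, chr8:11312805-11449287, plus strand) had 827 and 745 (740 ± 57.4 CPM). Which of the pair was higher over all models changed between the libraries. Models of a single exon held 384 of 827 and 239 of 745 Col4a2 counts, but 39 and 36 of the Col4a1 counts. On models of the class Known, described below, Col4a1 was higher in both libraries, with 208 and 321 counts against 103 and 152. The chains of specialised basement membranes were near the floor. Col4a5 had 7 and 8 counts, Col4a4 7 and 3, Col4a6 1 and 2, and Col4a3 0 and 1. Each of the pairs Col4a1 and Col4a2, Col4a4 and Col4a3, and Col4a6 and Col4a5 lies head to head on its chromosome. The annotated spans of the first pair overlap by 22 bases, those of the second are 71 bases apart and those of the last 1308.

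Type VI trimers hold a long chain such as Col6a3 beside Col6a1 and Col6a2. Col6a1 (chr10:76708792-76726168) had 122 and 139 counts (123 ± 10.9 CPM) and Col6a2 (chr10:76595762-76623630) had 95 and 107 (95.1 ± 7.63 CPM). Col6a3 (chr1:90765923-90843971), whose dominant annotated transcript is 10106 bases long, had 13 and 9. Col6a6 had 2 and 3, and Col6a4 and Col6a5 had 0 in both.

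The families with few counts were led by the multiplexins of vascular basement membranes. Col18a1, whose C-terminal fragment is endostatin, had 50 and 55 counts (49.4 ± 3.14 CPM), and Col15a1 had 21 and 33 (25.4 ± 7.90 CPM). Among the FACIT collagens, which decorate fibrils, Col16a1 had 18 and 14 counts and Col14a1 15 and 10. The other 19 detected genes had 1 to 15 counts over both libraries and 34 and 43 in sum. Beside those already given they are Col26a1, Col8a1, Col13a1, Col10a1, Col8a2, Col20a1, Col22a1, Col28a1, Col9a1, Col23a1, Col25a1 and Col9a3. Of the 34 genes, 4 were seen only on models of the class Genomic, which follow no annotated splicing (Col10a1, Col23a1, Col25a1 and Col4a3). The 4 counts of Col10a1 sat on 1 model, chr10:34397068-34399738, that reaches past the gene's annotated end at 34397085. Col7a1, Col9a2, Col12a1, Col17a1 and Col19a1 had 0 in both libraries.

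Since a count stands for 1 read of any length, CPM per kilobase is given as another scale and not as a correction. Per kilobase of the dominant annotated transcript, the order was Col3a1 (629 ± 29.9 CPM per kilobase), Col4a2 (115 ± 8.90), Col4a1 (105 ± 12.4) and Col1a1 (98.6 ± 9.29), then Col6a1 (29.97 ± 2.65), Col1a2 (25.6 ± 5.20) and Col6a2 (24.1 ± 1.93). In CPM, Col1a2 (137 ± 27.8) stood above Col6a1 (123 ± 10.9). Per kilobase, Col4a2, Col4a1 and Col1a1 were neighbours whose ranges of 1 SD met. The range of Col1a2 met those of Col6a1 and Col6a2, which did not meet each other. Col18a1 (9.76 ± 0.621 CPM per kilobase) and Col5a1 (9.07 ± 0.124) came next, followed by Col5a3 (6.77 ± 3.02), Col5a2 (6.68 ± 0.025) and Col15a1 (4.91 ± 1.53). Col16a1 (2.90 ± 0.523), Col14a1 (2.07 ± 0.594) and Col6a3 (1.03 ± 0.267) closed the list of genes with at least 20 counts. With 2 libraries an exact rank test between genes cannot pass 0.05, so the order was not tested and is a description.

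Chains that assemble into 1 trimer were set against each other within each library. In type I, a heterotrimer in which alpha 1 chains outnumber alpha 2 chains, the count ratio of Col1a1 to Col1a2 was 3.48 (95% exact counting interval 2.93 to 4.16) in replicate 1 and 5.31 (4.38 to 6.48) in replicate 2. These intervals did not overlap. The ratio of Col4a1 to Col4a2 was 0.814 (0.734 to 0.902) and 1.07 (0.971 to 1.19), and its intervals did not overlap either. Counting only models of the class Known, described below, the Col4a1 to Col4a2 ratio was 2.07 on average. The ratio over all models includes single-exon models, which held 384 and 239 counts of Col4a2 against 39 and 36 of Col4a1. A ratio without them was not computed. The ratio of Col6a1 to Col6a2 was 1.28 and 1.30, with intervals that overlapped almost fully (0.974 to 1.70 and 1.00 to 1.69). Col5a1 to Col5a2 stood at 1.70 and 1.74. With Known models only it was 0.850 on average, a thin value from 7 and 7 counts against 10 and 7. Col6a3 to Col6a1 was 0.107 (0.055 to 0.189) and 0.065 (0.029 to 0.127), and on the scale of counts per kilobase 0.035 ± 0.012. The short-chain pair Col8a1 to Col8a2, with 1 and 5 counts against 1 and 3, was too thin for a ratio of use.

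Of the collagen genes, 17 had at least 10 summed counts and were tested between the libraries with an exact binomial test (two-sided, given each gene's summed count) and Benjamini-Hochberg adjustment over 10159 genes. Only Col4a1 passed, with a log2 ratio of replicate 2 over replicate 1 of 0.24 (adjusted p = 0.043), while 0 collagens were called higher in replicate 1. Over all tested genes 1.60% were called higher in replicate 2 and 1.65% higher in replicate 1, 3.26% in all. At an unadjusted p under 0.05 there were 6 of 17, against 12.3% of all tested genes, the others being Col3a1 (log2 ratio 0.10, adjusted p = 0.092), Col5a3 (0.92, adjusted p = 0.092), Col1a2 (-0.41, adjusted p = 0.23), Col1a1 (0.19, adjusted p = 0.26) and Col4a2 (-0.16, adjusted p = 0.31). The median log2 ratio of the 17 was 0.10, against 0.08 over all tested genes. The Col4a1 call did not hold with TMM scaling (0.16, adjusted p = 0.36), with no minimum count (adjusted p = 0.069), with a trend on transcript length removed (0.05, adjusted p = 0.95) or by edgeR's exact test with a common dispersion (0.16, adjusted p = 1), which called 0 collagens. TMM scaling called Col4a2 instead (-0.24, adjusted p = 0.032), and removal of the length trend called Col4a2 (-0.35, adjusted p = 0.00032) and Col1a2 (-0.60, adjusted p = 0.03). With Known models only, Col4a1 (0.62, adjusted p = 8.3e-05) and Col3a1 (0.14, adjusted p = 0.0044) were called by the binomial test, and the Col4a2 ratio changed sign (0.55, adjusted p = 0.07). The part of the atrial, thymus, macrophage and adipocyte differences in these ratios was not tested.

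Each model belongs to a class set by the authors. Known models hold the full intron chain of an annotated transcript, ISM (incomplete splice match) models hold a stretch of one, NIC models combine known splice sites in a new way, NNC models use a new splice site, and Genomic models follow no annotated splicing. Collagen counts were Known in 59.5% and 64.6% of cases, ISM in 33.8% and 25.3%, NIC or NNC in 5.75% and 5.94%, and Genomic in 0.881% and 4.22%. Over all reference genes Known held 80.5% ± 0.20 and ISM 8.50% ± 0.12. Over 1112 other genes with a dominant transcript of 5000 to 7000 bases, the length range of most abundant collagens, Known held 52.1% ± 0.99 and ISM 21.4% ± 0.53. The collagen figure rests on Col3a1. Without it the Known share was 29.5% and 37.4%, and ISM was 61.2% and 44.7%. Of ISM counts, 1675 and 1655 were on models that lack the 5′ end and 9 and 9 on models that lack the 3′ end. A further 464 and 52 were on single-exon models that the authors gave neither label, 384 of those in replicate 1 in Col4a2.

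**Figure D2:**
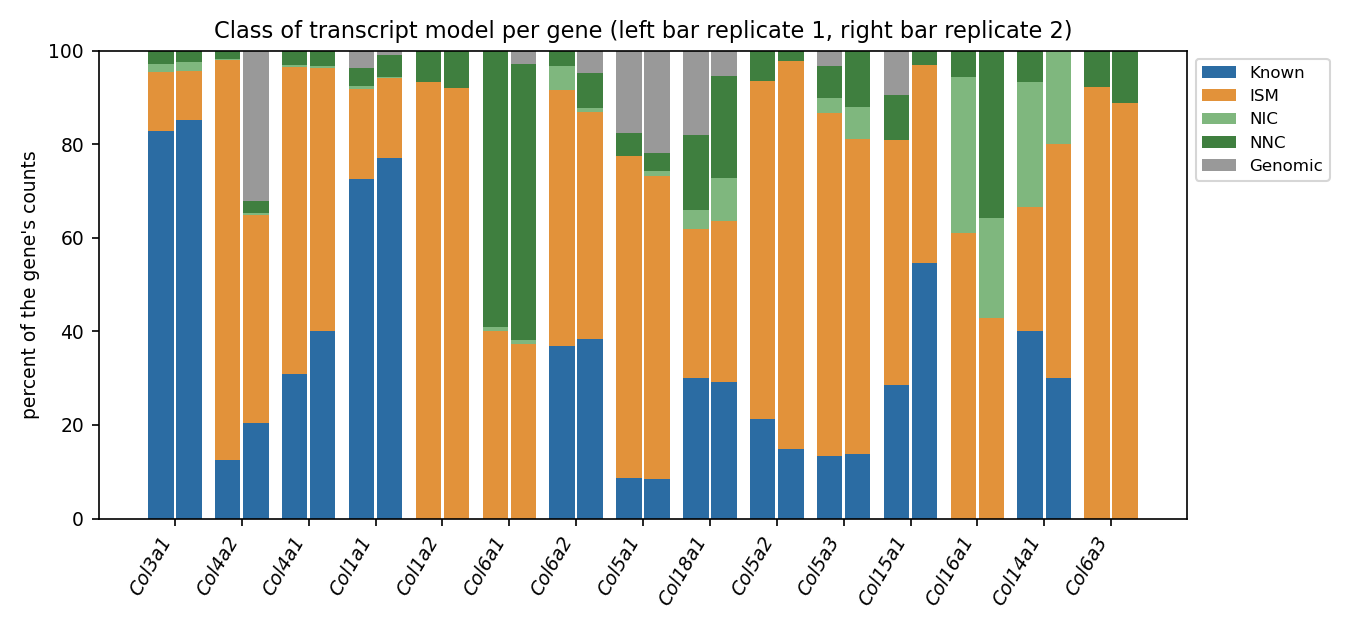
Share of each gene's counts (y axis, percent) in the 5 classes of transcript model, for the 15 collagen genes with at least 20 summed counts, with replicate 1 as the left and replicate 2 as the right bar. Known models lead in Col3a1 and Col1a1, Col1a2 and Col6a1 have none, and Col4a2 shows a large Genomic share only in replicate 2.

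The genes differed widely in this. Known models held 82.8% and 85.2% of Col3a1 counts and 72.7% and 77.1% of Col1a1 counts, but 30.9% and 40.1% of Col4a1 counts and 12.5% and 20.4% of Col4a2 counts. They held 36.8% and 38.3% in Col6a2, 30% and 29.1% in Col18a1, 8.75% and 8.54% in Col5a1, 21.3% and 14.9% in Col5a2 and 13.3% and 13.8% in Col5a3. No Known model was seen for Col1a2, Col6a1, Col16a1 or Col6a3 in either library. Where Known models were seen they used mainly 1 transcript per gene. Col15a1-202 had 5 and 18 counts against 1 and 0 for Col15a1-201, and Col6a2-201 had 33 and 40 against 2 and 1 for Col6a2-202. Col18a1 used only Col18a1-202 (15 and 16 counts).

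The share of incomplete models was compared between libraries gene by gene (two-sided Fisher's exact test of ISM against Known counts, adjusted over 4934 genes). The tested collagens were Col1a1, Col1a2, Col3a1, Col4a1, Col4a2, Col5a1, Col5a2, Col5a3, Col6a1, Col6a2 and Col18a1. The share differed in 2 of them, against 1.36% of all genes tested. In Col4a2 the ISM share of these counts was 87.3% in replicate 1 and 68.5% in replicate 2 (Fisher's exact test, adjusted p = 4.7e-13), and in Col4a1 it was 68.0% and 58.4% (Fisher's exact test, adjusted p = 0.017). The classes of single-exon Col4a2 models differed between the libraries. In replicate 1 a single-exon model of 1229 bases, chr8:11448059-11449287, equal to the last exon of Col4a2, had 384 counts and the class ISM. In replicate 2 a single-exon model of 4312 bases with the same end, chr8:11444976-11449287, had 238 counts and the class Genomic. Without single-exon models 0 collagens passed after adjustment, against 0.0641% of genes tested. The ISM share of Col4a1 was then 66.0% and 56.3% (Fisher's exact test, p = 0.00033 unadjusted, adjusted p = 0.16), and that of Col4a2 was 75.8% and 68.5% (Fisher's exact test, p = 0.015 unadjusted, adjusted p = 1). With every class but Known taken as incomplete, Col15a1 was tested as well. Only Col4a2 then differed (adjusted p = 0.012 by Fisher's exact test), against 0.193% of genes.

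The distance each model reaches towards the 5′ end was measured in annotated bases of the dominant transcript, counting Known models as complete. In Col3a1 (5564 bases) 87.3% and 89.5% of counts reached exon 1, and in Col1a1 (5930 bases) 76.6% and 81.6%. Col1a2, though shorter at 5348 bases, reached exon 1 in 3.01% and 4.00% of counts, and its median count reached 3120 and 3219 bases from the 3′ end. Col4a1 (6615 bases) reached exon 1 in 33.7% and 42.4%, and Col4a2 (6450 bases) in 13.8% and 22.4%. Col5a1 (8406 bases) did so in 12.5% and 9.76%, and Col6a3 (10106 bases) in 0 of 13 and 0 of 9 counts. Col6a1 reached exon 1 in 58.2% and 56.8% of counts although it had no Known model. The order of genes by this share was not the same in both libraries: Col18a1, at 50% and 58.2%, was below Col6a1 in replicate 1 and above it in replicate 2.

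**Figure D3:**
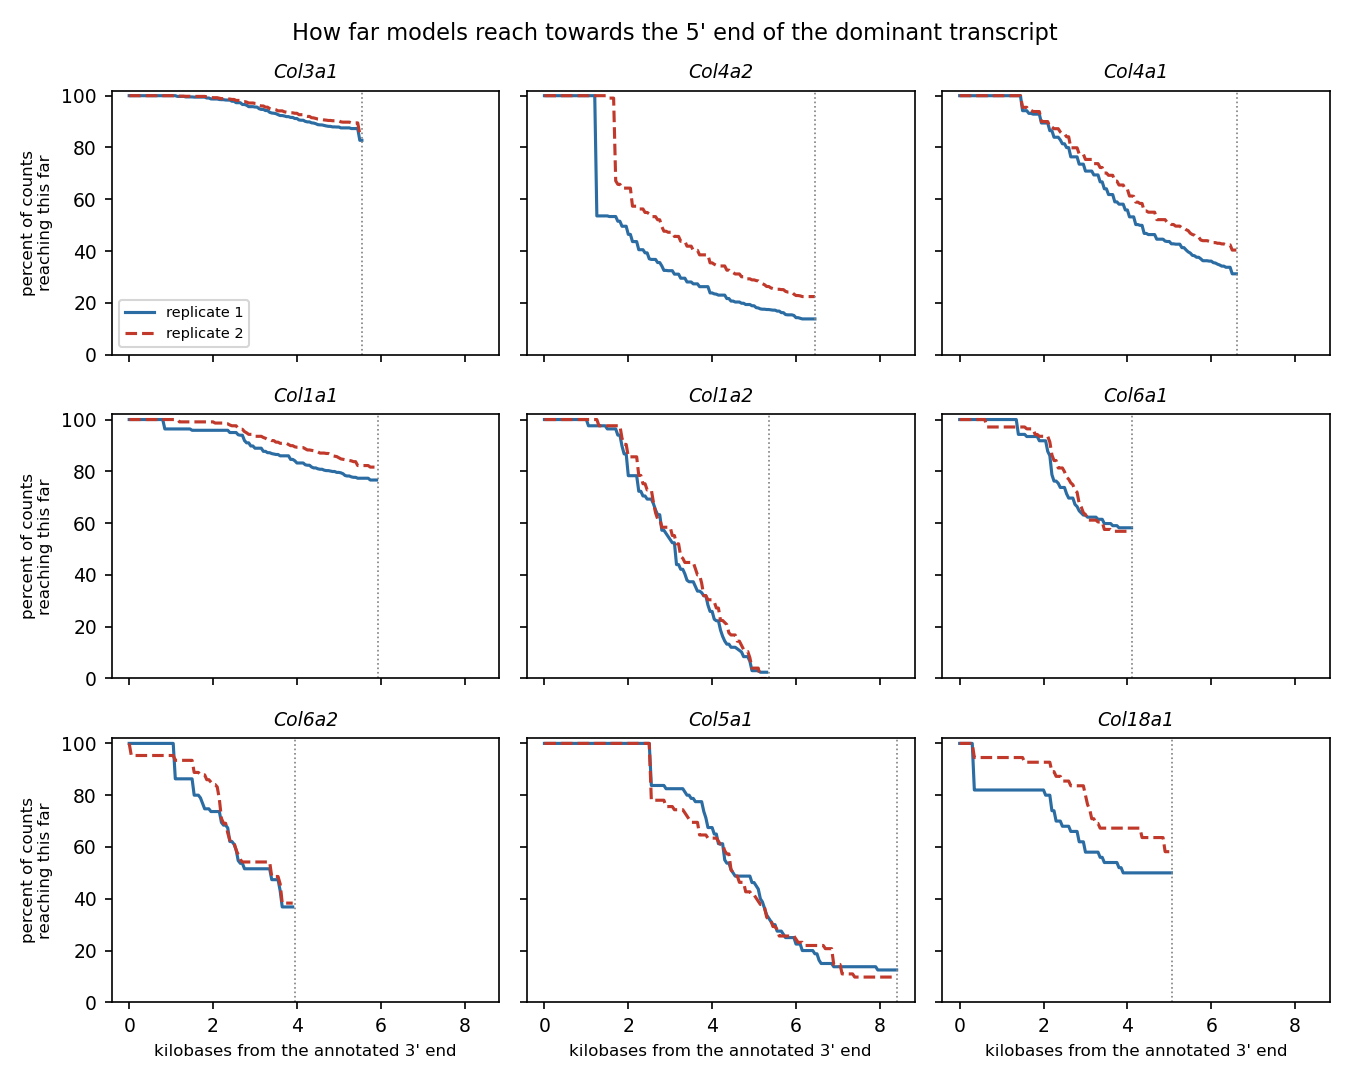
Share of counts (y axis, percent) whose model reaches at least a given distance from the annotated 3′ end (x axis, kilobases of exon), for the 9 collagen genes with at least 100 summed counts. Solid lines are replicate 1, dashed lines replicate 2, and the dotted vertical line is the transcript's full length. Col3a1 and Col1a1 stay high to the end, and Col1a2 falls steadily to 2.41% in replicate 1 and 0% in replicate 2 at 5300 bases. Col4a2 falls to 53.6% at 1250 bases in replicate 1 and to 67.1% at 1700 bases in replicate 2.

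The most abundant incomplete models lay at the 3′ end. In replicate 1 they were the Col4a2 last-exon model, a single-exon Col4a1 model of 1452 bases with 39 counts, Col4a2 models of 7 and 5 exons with 26 counts each, and a 22-exon Col3a1 model with 24. In replicate 2 they were a single-exon Col4a1 model with 36 counts, Col4a1 models of 10 and 4 exons with 34 and 31, a 19-exon Col3a1 model with 26 and a 6-exon Col4a2 model with 26.

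Inclusion of single exons was counted over models that extend beyond an exon on both sides. Of 681 internal exons with at least 10 spanning counts over both libraries, 647 were held exactly in at least 95% of them, and 12 in fewer than 80%. Of the 7 exons of 26 bases or fewer, 5 were held in 0 counts. Of the 16 exons of 27 to 30 bases none was below 80% (median 97.4%), and of the 310 exons of 31 to 60 bases 5 were. The short exons are printed in capitals with the 12 bases on each side in the spliced annotated transcript, to show which annotated exons the models lack and which they hold. All are coding in the mm10 annotation, and the letters are those of the reference, not of these mice.
Col6a1 exon 6: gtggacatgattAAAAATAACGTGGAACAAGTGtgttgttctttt
Col6a1 exon 7: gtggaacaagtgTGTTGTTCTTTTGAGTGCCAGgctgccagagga
Col6a1 exon 29: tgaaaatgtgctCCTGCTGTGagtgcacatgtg
Col1a2 exon 2: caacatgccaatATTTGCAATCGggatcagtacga
Col1a2 exon 3: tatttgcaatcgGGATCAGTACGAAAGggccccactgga
Col5a2 exon 3: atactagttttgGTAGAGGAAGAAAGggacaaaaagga
Col6a2 exon 4: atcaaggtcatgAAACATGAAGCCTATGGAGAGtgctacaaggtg

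In Col6a1, exons 6 and 7 (chr10:76721263-76721283 and chr10:76721088-76721108, 21 bases each) were held in 0 of 76 and 0 of 85 spanning counts, which allows up to 1.86% over both libraries. Exon 29 (chr10:76712865-76712873, 9 bases) was held in 0 of 112 and 0 of 130, which allows up to 1.24%. In Col1a2, exon 2 (chr6:4508335-4508345, 11 bases) was held in 0 of 5 and 0 of 5 counts, and exon 3 (chr6:4508940-4508954, 15 bases) in 0 of 5 and 0 of 7, which allows up to 30% and 25%. Other exons as short were kept. Exon 3 of Col5a2 (chr1:45438870-45438883, 14 bases) was held in 11 of 11 and 9 of 9 counts, and exon 4 of Col6a2 (chr10:76614109-76614129, 21 bases, the length of the missing Col6a1 pair) in 47 of 49 and 55 of 58. Length alone therefore did not separate exons that were held from those that were not.

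**Figure D4:**
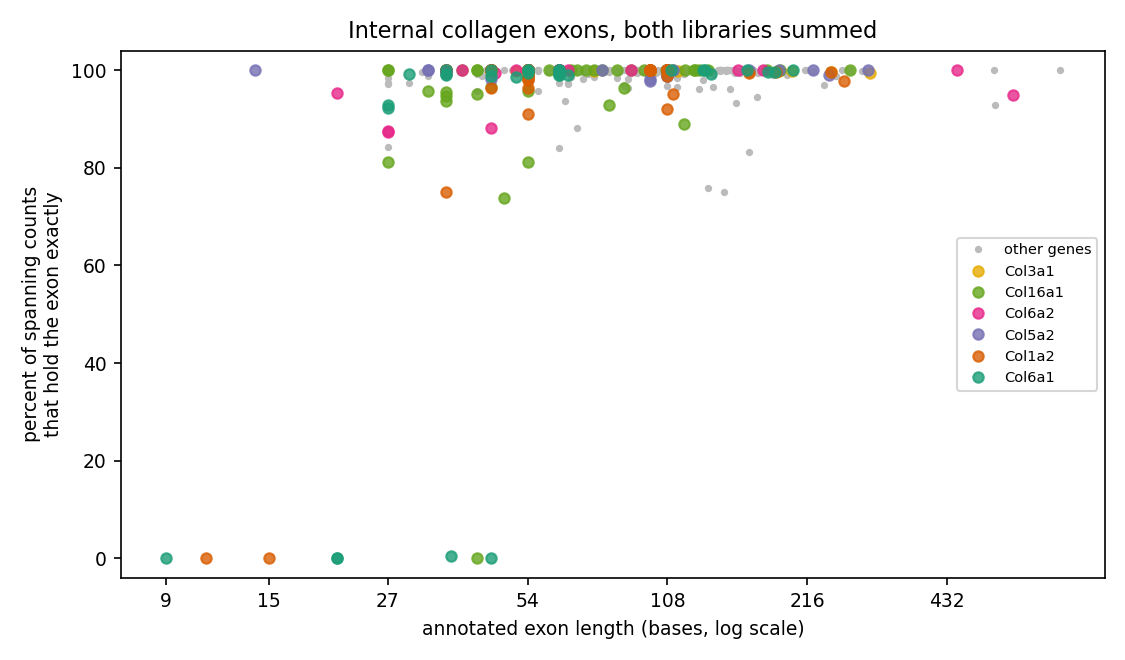
Each point is an internal exon of a dominant collagen transcript with at least 10 spanning counts, placed by its annotated length (x axis, bases, log scale) and by the share of spanning counts that hold it exactly (y axis, percent, both libraries summed). Nearly all of the 681 exons lie above 80%, and those at 0 belong to Col6a1, Col1a2 and Col16a1.

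The exons next to the missing ones changed length. The main new Col6a1 model, NNC with 32 exons and 63 and 67 counts, replaced exons 6, 7 and 8 (87 annotated bases) by 1 exon of 82 bases at chr10:76720961-76721042. It replaced exons 28 and 29 (46 annotated bases) by 1 exon of 41 bases at chr10:76713181-76713221. Each new exon was 5 bases shorter than the annotated exons it stood for, and whether the reads themselves lack these bases was not tested. The new junctions were carried by 70 and 80 counts for the first and 71 and 83 for the second. A related model of 31 exons, which also lacks a 27-base exon, had 2 and 10 counts. The dominant annotated transcript, Col6a1-201, holds all 3 missing exons. In Col1a2 a model without exons 2 and 3 had 4 and 3 counts.

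The other common change was a small shift of a splice site. Among new junctions of NIC and NNC models, the 5′ splice site (donor) was moved so that the exon was longer by 4 bases in 112 and 91 counts, over 62 junctions of 10 genes, and 22 of these junctions and 80 and 70 of the counts were in Col3a1. The most used one, chr1:45332031-45332134, gave a 51-exon Col3a1 model with 24 and 20 counts. A second Col3a1 model with a donor moved by 4 bases had 15 and 7 counts, and another, with a donor that shortens the exon by 3 bases, had 6 and 13. The rest of the 10 most counted were a 51-exon Col4a1 model without a 27-base exon (6 and 7 counts), a Col18a1 model with an acceptor that shortens exon 37 by 3 bases (4 and 6) and a pair of Col1a1 models (1 and 6, and 2 and 5). In all, 49 of 379 new intron chains of collagens were found in both libraries, and they held 194 of 365 and 208 of 403 counts on such models. Of the 49, 29 were in Col3a1, and 10 were called NIC in 1 library and NNC in the other.

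Other exons with low exact inclusion had a moved edge or were skipped. Exon 62 of Col16a1 (42 bases) was held exactly in 0 of 29 counts and overlapped in 29 of 29. An acceptor that lengthens it by 9 bases was found in 7 and 7 counts of NIC and NNC models. Junctions were counted in these classes only, so the 11 and 6 ISM counts of Col16a1 are not covered. Col16a1 had no Known model, so its dominant transcript was chosen by number of introns. Exon 37 of Col18a1 (132 bases) was exact in 69 of 91 and overlapped in all. Exon 41 of Col16a1 (48 bases) was skipped in 6 of 23 counts, being held in 9 of 12 and 8 of 11. In Col14a1, exon 19 is annotated with 143 bases in Col14a1-203 and 152 in Col14a1-201, a difference of 9 bases (chr15:55411713-55411721). The shorter form was held in 9 of 11 and 3 of 5 counts. The 2 forms are shown with the extra bases in capitals.
Col14a1-201: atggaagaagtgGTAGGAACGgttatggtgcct
Col14a1-203: atggaagaagtggttatggtgcct

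The 3′ ends of models that are not Known fell on few positions per gene, since the deposited models give merged ends. In Col3a1, 568 of 618 and 546 of 570 such counts ended within 50 bases of a point 690 bases before the annotated end, and 44 and 21 at the annotated end. In Col1a1, 126 of 158 and 146 of 152 ended about 1196 bases before it, and 25 and 6 at it. In Col1a2 the point was 570 bases before the end, with 106 of 166 and 70 of 125 counts, against 60 and 55 at the end. Col5a2 had 23 of 37 and 32 of 40 at 1457 bases before the end, against 2 and 5 at the end. Col5a1 had 40 of 73 and 28 of 75 at 1985, against 26 and 32 at the end, which was thus the more used in replicate 2. These ends lie inside the last exon. The values cover counts that are not Known, out of 3584 and 3854 counts of Col3a1 and 578 and 664 of Col1a1 in all. Col6a3 and Col14a1 were unlike these, as their main ends lay outside the last exon of the dominant transcript. All 13 and 9 Col6a3 counts ended about 937 genomic bases before its annotated end, and its last exon has 11 bases. Col6a3 had no Known model, so its dominant transcript was chosen by number of introns. In Col14a1, 6 of 9 and 4 of 7 counts that are not Known ended about 514 genomic bases before the annotated end, with a last exon of 271 bases.

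Col4a2 ended at the annotated end in 722 of 724 and 590 of 593 counts, and Col4a1 within 50 bases of it in 457 of 465 and 465 of 479. Col6a1 did so in 121 of 122 and 139 of 139, Col18a1 in 33 of 35 and 32 of 39, and the fibrillar Col5a3 in 26 of 26 and 49 of 50. The hexamer AATAAA, the usual signal for cleavage and polyadenylation, or its variant ATTAAA was searched on the transcript strand in the 30 bases up to each end. AATAAA was found at both ends of Col3a1, at the earlier end of Col1a2 and not its annotated end, and at the annotated ends of Col1a1 and Col5a2 and not their earlier ones. Neither end of Col5a1 had a hexamer, so that 2 of these 5 earlier ends had one. Col4a1 had none at its annotated end and AATAAA at the end 1096 bases earlier that 8 and 12 counts used. Over 57312 annotated protein-coding transcripts, 44.98% had either hexamer in the last 30 bases and 1.85% in a window of the same length ending 300 bases earlier. A match describes these letters only. Known models carry the annotated end by definition, so the end of their reads was not analysed here.

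**Figure D5:**
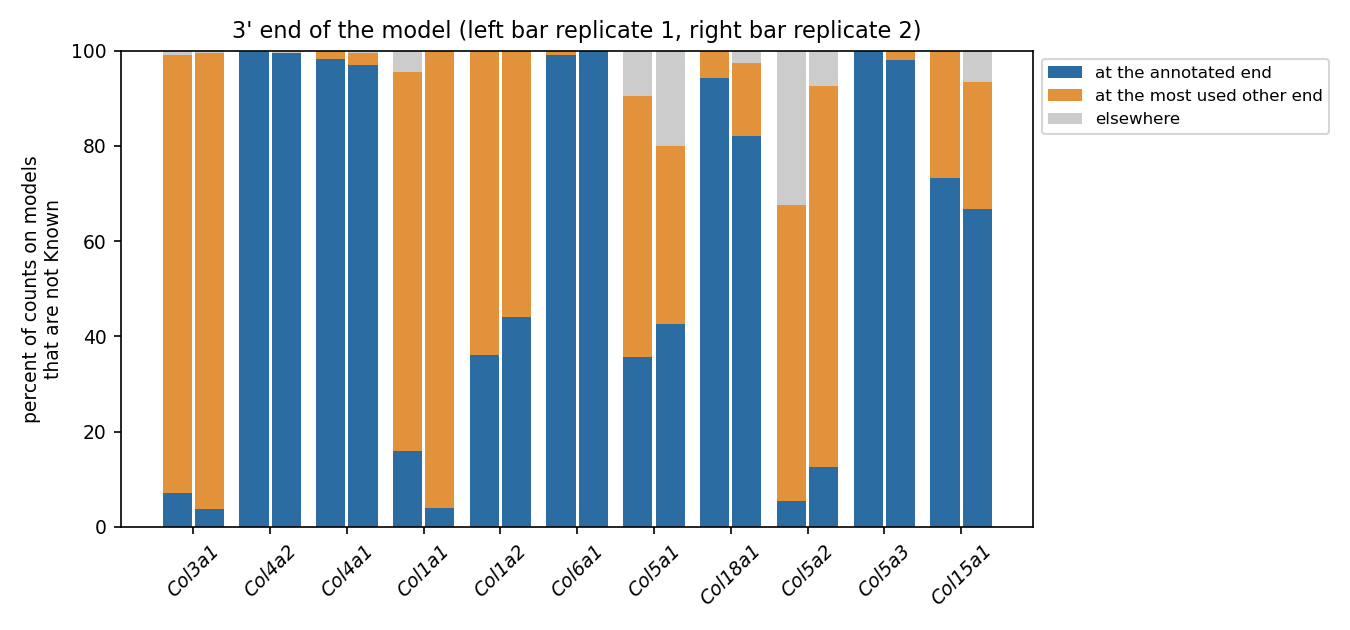
Share of counts on models that are not Known (y axis, percent) that end within 50 bases of the annotated 3′ end (blue), within 50 bases of the most used other end (orange) or elsewhere (grey), with replicate 1 left and replicate 2 right in each pair. Col3a1, Col1a1 and Col5a2 end mostly before the annotated end, and Col4a1, Col4a2, Col6a1 and Col5a3 at it.

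The enzymes and partners that make and hold collagen were measured from a list of 85 genes, of which 80 were detected and 69 tested. Between libraries 4 were higher in replicate 2 and 1 in replicate 1, 5 of 69 against 3.26% of all genes tested, and edgeR called 0. The median log2 ratio was -0.01. Among 15 hydroxylating and glycosylating enzymes, P4hb, the shared subunit of prolyl 4-hydroxylase, had 400 and 479 counts. P4ha2, a catalytic subunit, was called with 90 and 140 (log2 ratio 0.62, adjusted p = 0.039). Of 12 chaperone and export genes, the collagen chaperone Serpinh1 (HSP47) had 804 and 978 counts (0.27, adjusted p = 0.0038), and Fkbp10 83 and 46 (-0.84, adjusted p = 0.036). The general chaperones Hspa5 with 703 and 1003 (adjusted p = 1.6e-10) and Pdia3 with 129 and 199 (adjusted p = 0.0074) were also called, all by the binomial test.

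None of the tested genes for propeptide cleavage (5), crosslinking (6), fibril partners (15), receptors (7) or turnover (11) was called. Among them the fibril partner Sparc led with 1377 and 1431 counts, followed by the proteoglycan Dcn with 783 and 686 and the integrin chain Itgb1 with 505 and 544. The propeptidase Bmp1 had 76 and 68 counts, its enhancer Pcolce 193 and 189, the crosslinking enzymes Tgm2 126 and 139, Loxl1 57 and 53 and Lox 15 and 18. The collagenase Mmp13 and the neutrophil collagenase Mmp8 were at 0 in both libraries, and the gelatinase Mmp2 had 188 and 192 counts.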

How the data were processed

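The authors deposited, for each of 2 libraries, whole-number read counts per transcript model and an annotation of the models. Per the file headers and the deposited annotation, models follow GENCODE M21 on mm10, and those absent from it carry the source name TALON. The exon numbers, lengths and coordinates (other values) are as deposited by the authors. The sources used here do not give the aligner, tool versions or model filters. Counts were summed per gene symbol and scaled to CPM on the counts of reference genes. Spike-ins and new genes were left out. Log2 ratios are of CPM plus a pseudocount of 1. Genes with at least 10 summed counts were tested, at a threshold of 0.05. The test was tried on simulated counts. The dominant transcript is the one with most Known counts, otherwise the protein-coding one with most introns. Sequences came from the GENCODE M21 transcripts.

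All members with at least 20 counts are named, all others by name and range. Structure is described for those with at least 20 counts, and the 10 new models and 5 incomplete models with most counts are named. Exons of low inclusion and ends were described after their values were seen. The members and lists were chosen with earlier results of these data known. Alternatives were library totals, TMM, Known models, minimum counts, length trend, edgeR and leaving out a replicate. Tools were Python 3.11.15, pandas 2.3.3, scipy 1.17.1, statsmodels 0.14.6, R 4.3.3 and edgeR 4.0.16.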

Additional observations from a re-analysis of the deposited data

Results flagged for a closer look

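New genes, absent from the reference and so outside the counts per collagen gene, lay on the strand opposite Col4a1 in both libraries, with 5 counts in replicate 1 and 7 in replicate 2, above the 3 counts that a count of 0 allows. Of these, 5 counts in replicate 1 (chr8:11206226-11211764) and 6 in replicate 2 (chr8:11207194-11211764) sat on 1 region with a shared end. Other collagen genes also had new genes on the opposite strand, among them Col18a1 (5 and 1 counts), Col1a1 (4 and 2) and Col4a2 (1 and 3). Such counts were therefore not particular to Col4a1, and their share over all genes is not given here. No control sample exists for this signal, and whether the strand of these reads was assigned correctly was not tested.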

How the results depend on the processing

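No paired analysis was possible because the series has 1 group. With Known models only, collagens held 0.477% of counts, basement membrane chains 0.046%, beaded filament chains 0.0044% and remaining families 0.0045%. The ratio of Col4a1 to Col4a2 was then 2.07, and 2 collagens passed between libraries. The Known-only ratio of Col5a1 to Col5a2 was 0.850, from 7 and 7 counts against 10 and 7. With models of at least 5 counts, beaded filament chains held 0.0156% and remaining families 0.0038%, Known models 70.3% and NIC and NNC models 2.49% of collagen counts. NIC and NNC models held 3.30% with at least 2 counts per model and 5.999% without the Genomic class. Without Col3a1 the shares of Known, ISM and NIC with NNC were 33.4%, 53.0% and 7.72%. Without single-exon models, an alternative added after seeing the data, Known held 66.4% and NIC with NNC 6.25%, and 0 collagens differed in incomplete share. With every class but Known, 1 did. All deposited counts as total gave basement membrane chains 0.139%. The number of collagens past the threshold was 0 with no minimum count, 2 with the length trend removed and 0 with edgeR. Per kilobase, Col6a1 to Col6a2 was 1.24, Col6a3 to Col6a1 0.035 and Col5a1 to Col5a2 1.36. With at least 2 counts in each library, 20 new models were shared. Genes under about 10 counts can show no difference at this depth.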
